A study of Homo sapiens with 4 samples.

Results

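The genes described here encode enzymes and regulators of sterol and fatty acid synthesis. They are 29 of the 43317 gene names on the array, chosen by name. Each was represented by the probe whose log2 signal had the highest mean over the 4 arrays. Of the 29, 7 belong to the mevalonate arm, 11 to the sterol arm, 4 to regulation and sterol transport, and 7 to the fatty acid arm. All 29 probes were well above background on all 4 arrays, by the mark that the scanner software sets.

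Cells build cholesterol from acetyl-CoA. The mevalonate arm makes farnesyl diphosphate, which the sterol arm turns into squalene, lanosterol and then cholesterol. The same acetyl-CoA feeds fatty acid synthesis, and desaturases and elongases modify the products. Many of these genes are targets of SREBP transcription factors, which are held in the endoplasmic reticulum by SCAP and INSIG proteins when sterols are plentiful and are released when sterols run low. Proliferating cancer cells use both routes to make membranes.

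The arrays measured total RNA of HCT116, an established colorectal cancer line, and of A549, an established lung cancer line. Cells of each line had been transfected, with the reagent Dharmafect1, with the microRNA miR-891b or with the negative control RNA NC1. The lines grew in different media, both with serum, which itself supplies lipids. The labels give neither the dose nor the time after transfection, nor a level of miR-891b in the cells. There were 4 groups, an NC1 and a miR-891b group in each line, with 1 array apiece. A difference within a line therefore has no replicate check and no p-value, and precision is limited by the number of arrays.

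Levels are log2 signal minus the 75th percentile of the same array, so 0 is the 75th percentile of all gene probes. A change is the level with miR-891b minus the level with NC1 in the same line, and a gene was counted as changed by size at 2-fold. A level is set only against levels of the same gene, because probes differ in brightness. Probes with at least 5 spots on each array gave a technical error: the median SD of a change over the spots of 1 probe was 0.061 in HCT116 and 0.071 in A549. This covers the spread within an array and not that between cultures. Where a gene had several probes, the changes of a pair of them differed by a median of 0.18 in HCT116 and 0.23 in A549.

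Between 44.7% and 50.3% of the 58201 gene probes were well above background, and no gene spot was saturated. Each line was on its own slide, so line and slide cannot be told apart, while every change with miR-891b is taken within 1 slide. Marker genes were read beside the line labels. They were chosen with earlier results of these data known, so they give no independent check of the labels. AKR1B10, AKR1C1, ALDH3A1, KRT81 and NQO1 were 2.37 to 12.2 higher in A549 NC1 than in HCT116 NC1, and CDX2, EPCAM, CLDN7 and CLDN3 were 3.13 to 6.75 lower. ALDH1A1, also an A549 marker, was not well above background in HCT116. AKR1B10 stood 4.47 higher on HCT116 miR-891b than on HCT116 NC1, while the 3 other A549 markers measured in HCT116 were below 0 there. Stray signal, seen as dim probes lit up together in one area, covered 10.5% of gene spots on HCT116 miR-891b and 0.0213% to 2.20% on the other arrays. It touched the probes that represent FADS1, FADS2, ACACA and SREBF1, and a further probe each of ELOVL6 and HSD17B7.

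The transfected microRNA is shown because its seed sets which messages it can pair with. RefSeq places mature miR-891b on chrX:146001100-146001121, minus strand (GRCh38.p14), and the capitals mark the seed, bases 2 to 8 from the 5′ end.
hsa-miR-891b: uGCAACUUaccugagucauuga
The DNA letters that pair with this seed, AAGTTGC, were in 0 of the 36 array probes of the 29 genes. They were in 0.393% of all 58201 gene probes. A probe covers only a short stretch of a message, and whole transcripts were not used here.

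Promoter sequences were at hand from RefSeq (GRCh38.p14) for 25 of the 29 genes, as windows from 250 bases before to 50 bases after the transcription start. FASN, SQLE, ACAT2 and FDFT1 had no entry. Motifs were searched on both strands, and a gene counted where the window of any of its listed starts held the motif. The GC box, GGGCGG, was in the windows of 24 of 25 genes (96%), against 48.3% of 27305 genes. The CCAAT motif was in 20 of 25 (80%), against 39.7%. The 27305 genes were all those with a promoter entry, whatever their signal here, while the 25 were all well above background. Whether these shares differ from those of other genes well above background was not tested. The E-box CACGTG was in 3 of 25, namely INSIG1, LSS and SC5D, against 8.77%. The exact consensus sterol regulatory element, whose letters are the first run of capitals in the SREBF2 sequence printed next, was in 1 of 25, SREBF2, and in 16 of 27305 genes. With up to 1 mismatch it was also in ACLY, giving 8% of the 25 genes against 2.08%. Motif matches are letters in a window and show no binding, and no match says only that these letters are not in this window.

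The 250 bases before the start are printed for 5 genes. IDI1, INSIG1 and FADS1 passed 1.5-fold downward in HCT116 and in A549, FDPS was one of those at least 2-fold lower in A549, and SREBF2 held the exact sterol regulatory element. The capitals mark matches to the 4 motifs, including those read on the opposite strand. The windows are IDI1 at chr10:1056705-1056954, minus strand (the most upstream of 3 listed starts), INSIG1 at chr7:155297628-155297877, plus strand, FADS1 at chr11:61817004-61817253, minus strand, FDPS at chr1:155308616-155308865, plus strand, and SREBF2 at chr22:41832855-41833104, plus strand.
IDI1: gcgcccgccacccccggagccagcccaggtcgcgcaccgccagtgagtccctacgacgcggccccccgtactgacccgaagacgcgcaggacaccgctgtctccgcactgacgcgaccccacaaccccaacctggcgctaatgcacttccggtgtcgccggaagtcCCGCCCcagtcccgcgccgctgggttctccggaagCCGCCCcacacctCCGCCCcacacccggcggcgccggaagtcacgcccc
INSIG1: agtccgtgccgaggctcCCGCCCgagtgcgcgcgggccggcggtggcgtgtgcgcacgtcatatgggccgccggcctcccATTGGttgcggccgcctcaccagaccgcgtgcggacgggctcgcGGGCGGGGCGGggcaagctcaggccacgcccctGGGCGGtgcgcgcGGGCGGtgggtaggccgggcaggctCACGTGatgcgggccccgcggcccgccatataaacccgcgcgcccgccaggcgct
FADS1: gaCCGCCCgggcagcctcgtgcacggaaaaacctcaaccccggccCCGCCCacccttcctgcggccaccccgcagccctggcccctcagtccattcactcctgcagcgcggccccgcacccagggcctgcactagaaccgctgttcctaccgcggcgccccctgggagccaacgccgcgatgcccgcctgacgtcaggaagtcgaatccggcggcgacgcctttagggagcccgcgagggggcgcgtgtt
FDPS: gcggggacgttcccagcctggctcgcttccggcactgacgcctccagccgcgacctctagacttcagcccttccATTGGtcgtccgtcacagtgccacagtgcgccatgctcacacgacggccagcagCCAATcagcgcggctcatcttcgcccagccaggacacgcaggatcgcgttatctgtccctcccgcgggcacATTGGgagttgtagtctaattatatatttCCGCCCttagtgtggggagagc
SREBF2: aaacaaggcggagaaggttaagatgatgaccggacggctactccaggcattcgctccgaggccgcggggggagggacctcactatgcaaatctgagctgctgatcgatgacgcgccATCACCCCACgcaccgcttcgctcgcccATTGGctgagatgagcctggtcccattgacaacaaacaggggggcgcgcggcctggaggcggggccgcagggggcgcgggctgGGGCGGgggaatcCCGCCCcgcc
IDI1 held 3 GC boxes, the nearest ending 31 bases before the start, and FADS1 held 2 and none of the other motifs. The CCAAT match that counted for IDI1 lay outside the bases printed here. INSIG1 held 5 GC boxes, of which 2 overlap by 1 base, with a CCAAT motif and an E-box from 55 to 50 bases before its start. FDPS held 3 CCAAT motifs and 1 GC box. In SREBF2 the sterol regulatory element ran from 134 to 125 bases before the start, with a CCAAT motif after it at 106 to 102 bases.

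With miR-891b, 27 of the 29 genes were below their NC1 level in HCT116 and 22 of 29 in A549. Over all genes measured, 55.5% were below 0 in HCT116 (19105 genes) and 55.6% in A549 (21337 genes). The median change of the 29 genes was -0.43 in HCT116, where that of all genes was -0.041. In A549 it was -0.28, where that of all genes was -0.059. The shifts were small: no gene of the 29 was 2-fold lower in HCT116 and 2 were in A549. The count of 27 in HCT116 was the same under every way of scaling the arrays that was tried, whereas quantile normalization brought the A549 count from 22 to 16 and the A549 median to -0.036. The 6 genes that turned from below to above 0 in A549 were ACACA, EBP, FADS2, HMGCS1, LSS and MVK.

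**Figure D1:**
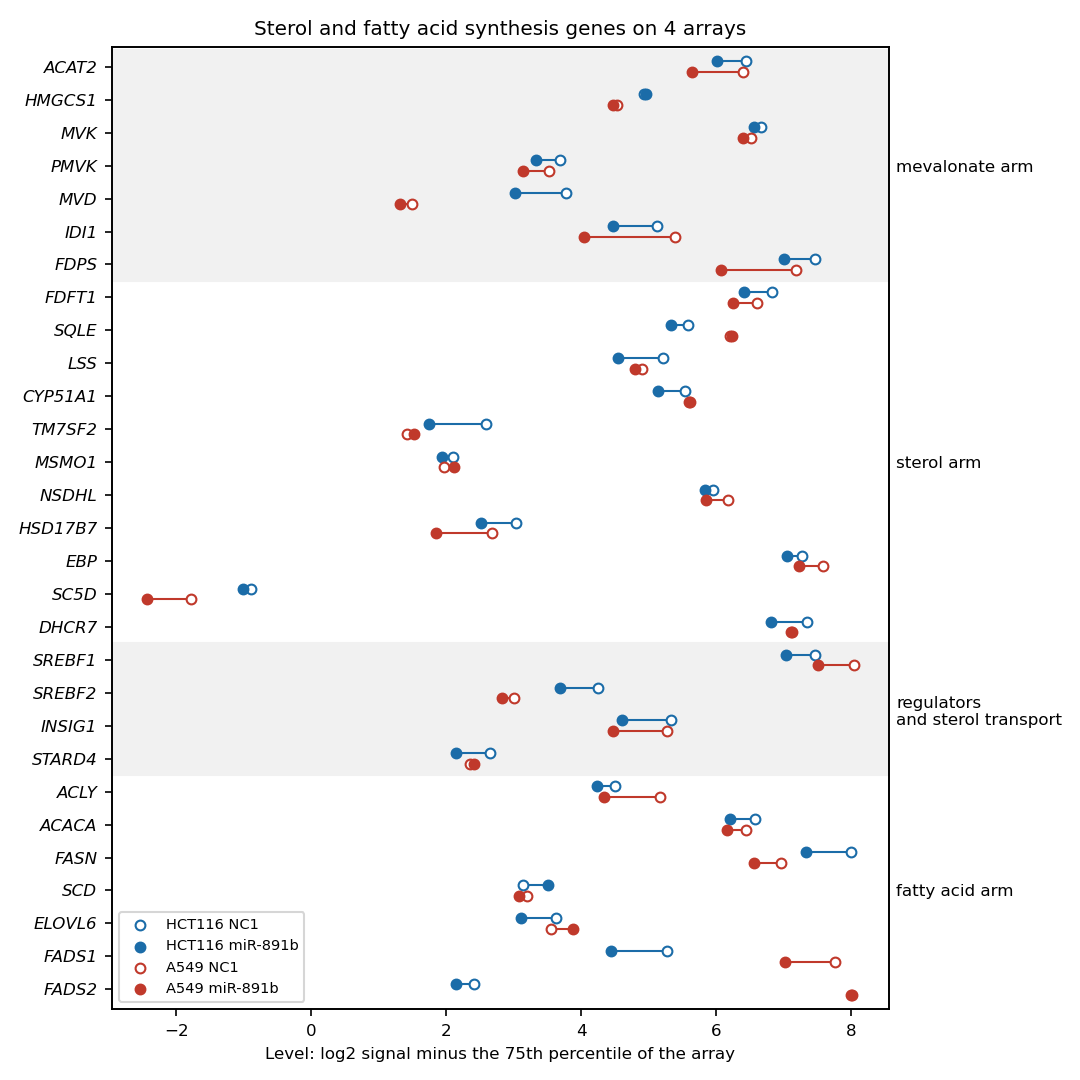
Level of each of the 29 genes on the 4 arrays, in log2 units relative to the 75th percentile of the array, with open circles for NC1, filled circles for miR-891b, blue for HCT116 and red for A549. In HCT116 the filled circle lies left of the open one for 27 genes, and FADS1 and FADS2 are the genes with the widest gap between the lines to the right.

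In HCT116, 0 of 29 genes were at least 2-fold lower (0.843% of all genes) and 0 were at least 2-fold higher (1.16%). At 1.5-fold, 7 of 29 were lower (5.65% of all genes) and 0 were higher (3.91%). These 7 were TM7SF2, FADS1, MVD, INSIG1, LSS, FASN and IDI1, and every arm of the pathway held at least 1 of them. The 2 genes above 0 were SCD and HMGCS1. Brighter genes as a whole stood close to 0 in HCT116. Among the 4777 genes above the 75th percentile of mean level over the 4 arrays, the median was -0.050 and 58.5% were below 0. The 23 of the 29 genes that lie there had a median of -0.41, with 21 below 0.

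In A549, IDI1 and FDPS were at least 2-fold lower, 2 of 29 (5.57% of all genes), and 0 were at least 2-fold higher (4.01%). At 1.5-fold, 8 of 29 were lower (15.3% of all genes) and 0 were higher (11.1%). The 8 were IDI1, FDPS, HSD17B7, ACLY, INSIG1, ACAT2, FADS1 and SC5D. Brighter genes were again taken by mean level over the 4 arrays, above the 75th percentile of the genes measured in A549. Among these 5335 genes the median A549 change was -0.17 and 64.8% were below 0. The 23 genes of the pathway among them had a median of -0.33, with 19 below 0. Of these 23, 6 were at least 1.5-fold lower (20.7% of the 5335 genes) and 0 were higher (6.32%). At 2-fold, 2 of the 23 were lower (7.57% of the 5335 genes). Of 12 proliferation genes, 12 were at least 2-fold lower in A549 (median -1.76, range -1.93 to -1.49) and 0 in HCT116 (median 0.062, range -0.20 to 0.14). Their part in the A549 result was not tested. PSAT1, the gene in the series title, changed by -0.81 in HCT116 and by -1.58 in A549.

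**Figure D2:**
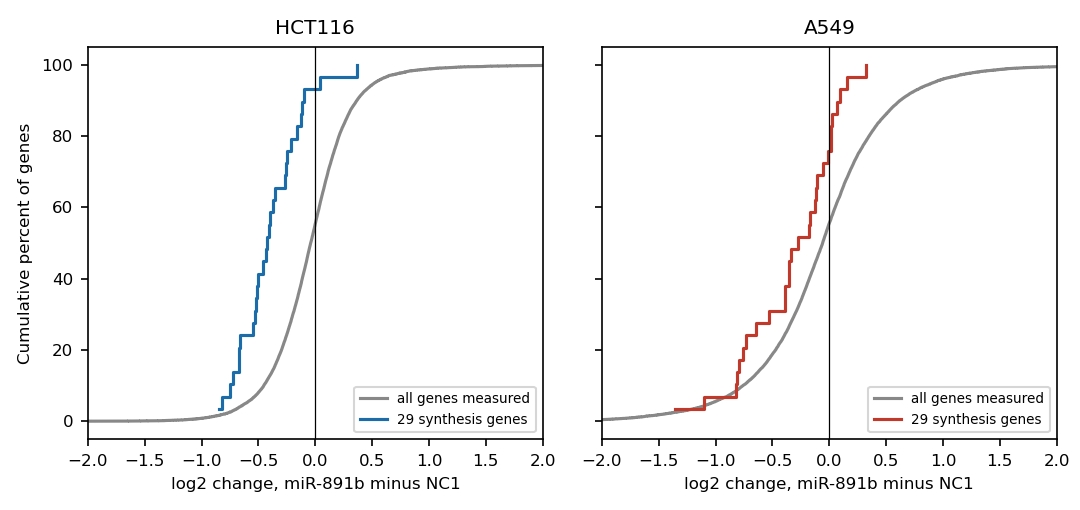
Cumulative percent of genes (y axis) at or below each log2 change, miR-891b minus NC1 (x axis), for all genes measured (grey) and for the 29 synthesis genes (blue in HCT116, red in A549). The HCT116 curve of the 29 genes lies left of the curve of all genes, with medians of -0.43 and -0.041, and the A549 curves lie closer together, with medians of -0.28 and -0.059.

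The mevalonate arm had the largest changes in A549. All 7 of its genes were below 0 there (median -0.39), 5 of 7 with quantile normalization, and 6 of 7 were below 0 in HCT116 (median -0.43). IDI1 interconverts isopentenyl and dimethylallyl diphosphate, the building blocks of every isoprenoid. Its probe lies at chr10:1086619-1086678 (hg19). IDI1 had levels of 5.13 with NC1 and 4.47 with miR-891b in HCT116, and of 5.39 and 4.04. in A549 The NC1 arrays were close to each other and both miR-891b arrays were lower. The gene was 1.58 times lower in HCT116 and 2.56 times lower in A549, the widest A549 change among the 29 genes, and 2.55% of all genes in A549 were lower still.

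FDPS makes farnesyl diphosphate, from which sterols and the lipid anchors of prenylated proteins branch off. Its probe lies at chr1:155290269-155290328 (hg19). FDPS had levels of 7.47 with NC1 and 7.01 with miR-891b in HCT116, and of 7.18 and 6.07 in A549, so the A549 miR-891b array stood below the other 3. It was 1.38 times lower in HCT116 and 2.15 times lower in A549. Quantile normalization took its A549 change from -1.11 to -0.77, short of 2-fold.

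MVD, the decarboxylase that makes isopentenyl diphosphate, had levels of 3.77 with NC1 and 3.01 with miR-891b in HCT116, and of 1.49 and 1.31 in A549. Both A549 arrays were below both HCT116 arrays. With miR-891b it was 1.69 times lower in HCT116 and 1.13 times lower in A549. ACAT2, the cytosolic thiolase that joins acetyl-CoA units at the start of the arm, had levels of 6.44 with NC1 and 6.01 with miR-891b in HCT116, and of 6.39 and 5.64 in A549. The NC1 levels of ACAT2 were nearly equal, and it was 1.35 times lower in HCT116 and 1.69 times lower in A549. The other 3 genes of the arm stayed under 1.5-fold in both lines. PMVK, a kinase of the arm, changed by -0.36 in HCT116 and -0.39 in A549, MVK, the kinase before it, by -0.096 and -0.12, and HMGCS1, the synthase upstream of both, by 0.037 and -0.058. The HMGCS1 changes were smaller than the SD between spots in both lines. With quantile normalization the A549 changes were 0.12 for HMGCS1 and 0.14 for MVK.

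The sterol arm was lower throughout in HCT116 and mixed in A549. All 11 genes were below 0 in HCT116 (median -0.40), and 6 of 11 in A549 (median -0.11), a direction that flipped with quantile normalization (4 of 11 below 0, median 0.14). TM7SF2 is a sterol reductase that acts after lanosterol demethylation. TM7SF2 had levels of 2.58 with NC1 and 1.74 with miR-891b in HCT116, and of 1.42 and 1.52. in A549 HCT116 NC1 stood above the other 3 arrays. The gene was 1.80 times lower with miR-891b in HCT116, the widest change there among the 29 genes, and its A549 change was 0.097.

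LSS closes the squalene chain into lanosterol, the first sterol. LSS had levels of 5.20 with NC1 and 4.54 with miR-891b in HCT116, and of 4.90 and 4.80. in A549 It was 1.59 times lower in HCT116 and 1.08 times lower in A549, and its other probe changed by -0.41 and -0.21. HSD17B7, the keto reductase of sterol demethylation, had levels of 3.04 with NC1 and 2.51 with miR-891b in HCT116, and of 2.67 and 1.85 in A549. Each miR-891b array was below both NC1 arrays. It was 1.44 times lower in HCT116 and 1.77 times lower in A549. Its 4 probes were all below 0, by -0.82 to -0.39 in HCT116 and -1.12 to -0.61 in A549, and 1 of the 4 lay in a stray area. A pseudogene of HSD17B7 is closely similar, and whether the probes separate the transcripts was not tested.

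SC5D is a late desaturase of the arm, and its probe lay below the 75th percentile on all 4 arrays. SC5D had levels of -0.89 with NC1 and -1.01 with miR-891b in HCT116, and of -1.79 and -2.43. in A549 Its A549 level was 1.56 times lower with miR-891b, and its change of -0.64 was -0.14 with normexp background correction and quantile normalization. The remaining 7 genes were below 0 in HCT116, from -0.53 to -0.12, and were -0.35 to 0.16 in A549. DHCR7, which completes cholesterol, changed by -0.53 in HCT116 and 0.012 in A549, and CYP51A1, the lanosterol demethylase, by -0.40 and 0.014. FDFT1, the squalene synthase that commits farnesyl diphosphate to sterols, changed by -0.41 and -0.35. The A549 change of FDFT1 was -0.073 with quantile normalization. SQLE, the squalene epoxidase, changed by -0.25 and 0.024. With quantile normalization the A549 changes were 0.42 for DHCR7, 0.28 for CYP51A1 and 0.34 for SQLE. NSDHL, a dehydrogenase of sterol demethylation, changed by -0.12 in HCT116 and -0.33 in A549, and its A549 change was -0.036 with quantile normalization. EBP, a sterol isomerase, changed by -0.22 and -0.35, and its A549 change was 0.089 with quantile normalization. MSMO1, the monooxygenase of the same demethylation, changed by -0.16 and 0.16.

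**Figure D3:**
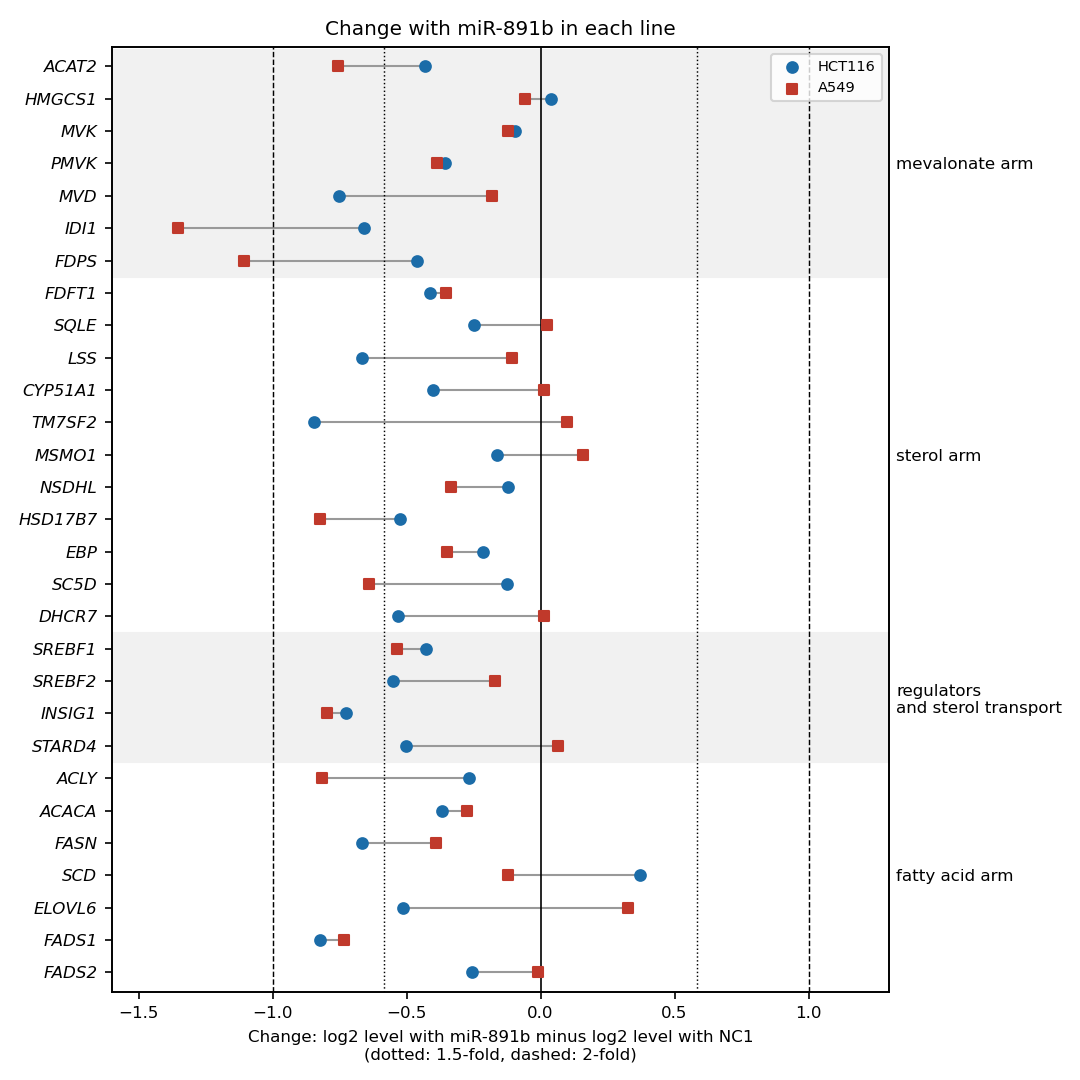
Log2 change with miR-891b for each of the 29 genes, grouped by arm, in HCT116 (blue circles) and A549 (red squares), with dotted lines at 1.5-fold and dashed lines at 2-fold. IDI1 and FDPS are the genes beyond the dashed line, both in A549, and in the sterol arm the circles lie left of 0 for 11 of 11 genes and the squares for 6 of 11 (4 of 11 with quantile normalization).

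Among the regulators, INSIG1 was lower by a like amount in both lines. INSIG1 retains the SREBP and SCAP complex in the endoplasmic reticulum and is itself a target of SREBP. Its probe lies at chr7:155101843-155101902 (hg19). INSIG1 had levels of 5.33 with NC1 and 4.60 with miR-891b in HCT116, and of 5.27 and 4.47. in A549 The arrays fell into an NC1 pair and a lower miR-891b pair that did not overlap, and the gene was 1.65 times lower in HCT116 and 1.74 times lower in A549. SREBF2, which encodes the SREBP that favours sterol genes, changed by -0.55 in HCT116 and -0.17 in A549. SREBF1, which encodes the SREBPs that favour fatty acid genes, changed by -0.43 and -0.53. Its other probe, outside the stray areas, changed by -0.17 in HCT116 and 0.23 in A549, so the direction of SREBF1 in A549 rested on the choice of probe. STARD4, a carrier of sterols between membranes, changed by -0.50 and 0.064.

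In the fatty acid arm, 6 of 7 genes were below 0 in each line, with medians of -0.37 in HCT116 and -0.28 in A549, and 4 of 7 were below 0 in A549 with quantile normalization. FASN assembles palmitate from acetyl and malonyl units. FASN had levels of 7.99 with NC1 and 7.33 with miR-891b in HCT116, and of 6.95 and 6.57 in A549, and both A549 arrays were below both HCT116 arrays. With miR-891b it was 1.59 times lower in HCT116 and 1.31 times lower in A549, where its change of -0.39 was -0.044 with quantile normalization. ACLY, which makes cytosolic acetyl-CoA from citrate, had levels of 4.49 with NC1 and 4.23 with miR-891b in HCT116, and of 5.16 and 4.34 in A549. Its A549 NC1 level stood above the other 3, and it was 1.20 times lower in HCT116 and 1.76 times lower in A549.

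FADS1 is a desaturase of polyunsaturated fatty acid synthesis. Its probe lies at chr11:61567126-61567185 (hg19). FADS1 had levels of 5.27 with NC1 and 4.44 with miR-891b in HCT116, and of 7.75 and 7.02. in A549 The A549 arrays were both above the HCT116 arrays, and within each line the miR-891b array was the lower one. The gene was 1.77 times lower in HCT116 and 1.66 times lower in A549. Its only probe lay in a stray area on HCT116 miR-891b, the array on which it was lowest, where 23.5% of the dim spots around it were lit up. With quantile normalization its A549 change was -0.34, under 1.5-fold.

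The probes that represent the other 4 genes of the arm stayed under 1.5-fold in both lines. ACACA, which makes malonyl-CoA, changed by -0.37 in HCT116 and -0.28 in A549 on a probe in a stray area, and by -0.34 and -0.68 on its other probe. The first of these A549 values was 0.016 with quantile normalization. SCD, the desaturase that makes oleate, changed by 0.37 in HCT116 and -0.12 in A549. ELOVL6, which lengthens palmitate, changed by -0.51 and 0.32, and its other probe, in a stray area, by -0.19 and 0.44. FADS2, the desaturase that acts before FADS1, changed by -0.26 and -0.011. With quantile normalization the A549 change of FADS2 was 0.49.

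The lines were the only replication of the transfection. In both of them IDI1, INSIG1 and FADS1 passed 1.5-fold downward, 3 of 29 (1.38% of the 18063 genes measured in both). This count was 2 with quantile normalization, 2 outside stray areas and 0 with normexp background correction and quantile normalization. Below 0 in both lines were 20 of 29 genes, against 33.8% of all genes. Of the other 9, 7 were below 0 in HCT116 and above 0 in A549, and HMGCS1 and SCD went the other way. With quantile normalization 16 of 29 were below 0 in A549, so no more than 16 were below 0 in both lines. Across the 29 genes the changes in the lines had a Pearson correlation of 0.21 and a Spearman correlation of 0.16. Across all 18063 genes these were 0.13 and 0.13. The points share the arrays and genes are not independent replicates. An additive model in limma, with terms for line and treatment over the 4 arrays, left 1 residual degree of freedom. After Benjamini-Hochberg adjustment it called 0 of 22711 genes (0% of all genes) and so 0 of 29, with the smallest adjusted p at 0.793. Without adjustment, 1214 genes (5.35%) had a p under 0.05 in limma. Of the 29 these were IDI1, FADS1, INSIG1, FDPS and HSD17B7, 5 genes, against 1 with quantile normalization and 1 with no filter on dim probes. IDI1 had a mean change of -1.01 with an SE of 0.29, INSIG1 one of -0.76 with an SE of 0.23, and FADS1 one of -0.78 with an SE of 0.23, below 0 in both lines in each case, and the adjusted p of each was 0.793 in limma.

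The NC1 arrays were set side by side to describe the level of the pathway in each line. At 2-fold, 4 of 29 genes were lower in A549 than in HCT116 (16.2% of all genes) and 2 were higher (11.1%). At 1.5-fold, 5 were lower (28.5% of all genes) and 4 were higher (20.1%). The median difference, A549 minus HCT116, was -0.14, where that of all 19219 genes was -0.10, and it turned to 0.060 with quantile normalization, with 13 of 29 below 0 in place of 19. MVD was 4.84 times lower in A549, SREBF2 2.37 times, TM7SF2 2.23 times and FASN 2.06 times. With quantile normalization and with median scaling 3 genes were at least 2-fold lower, and FASN was not among them. SREBF2 had levels of 4.24 with NC1 and 3.69 with miR-891b in HCT116, and of 3.0 and 2.82 in A549, with no overlap between the lines. FADS2 had levels of 2.40 with NC1 and 2.15 with miR-891b in HCT116, and of 8.01 and 8.0. in A549 FADS2 was thus 48.6 times and FADS1 5.58 times higher in A549, where the other 27 genes lay between -2.28 and 0.67. The FADS2 probe was in a stray area on HCT116 NC1, and its level on HCT116 miR-891b, outside such areas, was lower still.

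FADS1 and FADS2 are neighbours on chromosome 11, so the genes with a probe within 150 kb of the FADS1 probe were looked up. This choice was made after the values were seen, and the window reaches less far beyond FADS2. FADS3, the third desaturase of the cluster, was lower in A549 NC1, by a difference of -1.56, and so was RAB3IL1, by -2.18. TMEM258 differed by -0.64, FEN1 by -0.44 and MYRF by 0.54. The probes named BQ932264 and LOC100129473 were higher in A549, by 1.14 and 0.36. DAGLA, which makes an endocannabinoid, was higher in A549, by 1.97. High levels in A549 did not extend to all genes around the pair.

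**Figure D4:**
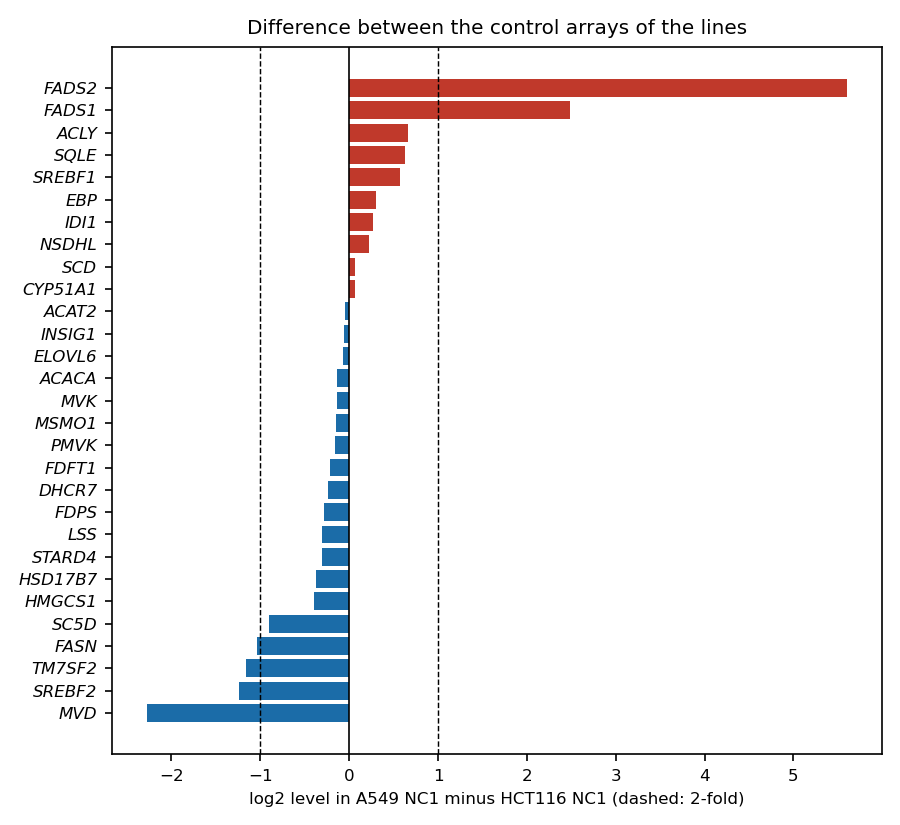
Log2 level on A549 NC1 minus that on HCT116 NC1 for each of the 29 genes, red where higher in A549 and blue where lower, with dashed lines at 2-fold. FADS2 at 5.60 and FADS1 at 2.48 stand above the other genes, and MVD, SREBF2, TM7SF2 and FASN lie beyond the lower dashed line.

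A list of 51 other genes of lipid metabolism was read in the same way. In HCT116, 0 of the 48 measured were 2-fold lower or higher, and the median was -0.15. At 1.5-fold, 6 were lower (5.65% of all genes) and 1 was higher (3.91%). The 6 were all of fatty acid synthesis and activation: ACSS2, which makes acetyl-CoA from acetate (-0.95), the citrate carrier SLC25A1 (-0.74), the fatty acid activators ACSL3 (-0.70), ACSL1 (-0.63) and ACSL4 (-0.62), and the lipogenic transcription factor MLXIPL (-0.69). The higher one was GGPS1, which makes geranylgeranyl diphosphate (0.62). Of the 17 genes of that group 14 were below 0, with a median of -0.34. The 5 genes of glycerolipid assembly were all below 0 (median -0.29), and the 9 measured of fatty acid oxidation had a median of -0.029, which was 0.046 with quantile normalization.

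In A549 the other genes did not lean the same way, with a median of 0.12 over 50 measured. At 2-fold, 2 were lower (5.57% of all genes) and 2 were higher (4.01%), and at 1.5-fold 7 were lower (15.3%) and 8 were higher (11.1%). HSD17B12, an enzyme of fatty acid elongation, was 2-fold lower or more (-1.52), as was NR1H3, the oxysterol receptor LXR alpha (-1.51). The fatty acid activator ACSL5 (1.65) and PPARA, a receptor that drives fatty acid oxidation (1.16), were 2-fold higher or more. ACSL5 had levels of 5.99 with NC1 and 5.64 with miR-891b in HCT116, and of 0.52 and 2.17 in A549, so the line difference was wider than the change. The 4 genes that hold, carry or cleave SREBP were above 0 in A549, under quantile normalization and median scaling too: INSIG2 changed by 0.87, the protease MBTPS1 by 0.84, SCAP by 0.70 and the protease MBTPS2 by 0.12. In HCT116 the same genes changed by -0.08, -0.19, -0.13 and 0.44. INSIG1 and INSIG2, which share the role of retaining SREBP, thus went in opposite directions in A549, -0.80 against 0.87. Fatty acid oxidation had a median of 0.34 over 10 genes in A549, with 3 below 0.

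**Figure D5:**
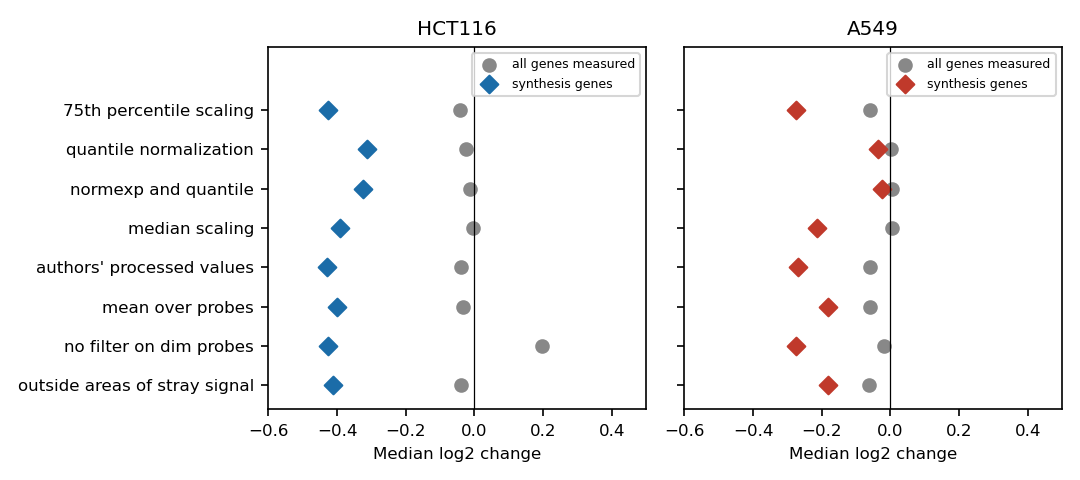
Median log2 change, miR-891b minus NC1, of the 29 synthesis genes (coloured diamonds) and of all genes measured (grey circles) under 8 ways of processing the arrays, for HCT116 (left) and A549 (right). The HCT116 diamonds stay between -0.43 and -0.31, while the A549 diamonds lie at -0.28 with 75th percentile scaling, at -0.036 with quantile normalization and at -0.025 with normexp background correction and quantile normalization.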

How the data were processed

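Per the labels, total RNA was labelled with Cy3 and hybridised to Agilent 1-colour arrays, and samples were grouped by title. The deposited scanner files hold intensity values made with Agilent Feature Extraction 11.5.1.1, per the submitters' processing notes, with background subtracted and spatial trends removed, per the file headers, and probe coordinates on hg19. A deposited value table holds log2 values by the authors; how they were made is not given in the sources used here. They equalled log2 processed signal minus each array's 75th percentile within a median of 0.0069 per array (largest difference 0.11), and were used as an alternative.

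Outlier spots were left out, spots of a probe were averaged on the log2 scale, and the 75th percentile of each array was subtracted. A gene counted as measured in a line where both of its arrays had the probe well above background, and in limma on at least 2 arrays. Signals at the 75th percentile were 54.9 to 74.8. Software was Python 3.11.15, numpy 2.4.6, pandas 2.3.3, R 4.3.3 and limma 3.58.1 (lmFit, eBayes). The fit was also run on data simulated from its own model, a check of the code and not of the model. A spot lay in a stray area where at least 10% of the dim spots within 10 rows and columns were well above background.

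The members, the lists and the tests were chosen with earlier results of these data known. All members were to be named, with every array's value for those at least 1.5-fold changed in a line, and other pathway genes at 2-fold. Those named at 1.5-fold, the SREBP processing genes and the FADS neighbours were added after their values were seen. Alternatives were quantile normalization, normexp (offset 50) with quantile normalization, median scaling, the authors' values, the mean over probes, no filter on dim probes, leaving out stray areas, and 1.5-fold in place of 2-fold. Restriction to genes above the 75th percentile of mean level and the counts below 0 and at 1.5-fold were added after seeing the data.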

Additional observations from a re-analysis of the deposited data

Results flagged for a closer look

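In 4 genes the change lay beyond the SD between spots in opposite directions in HCT116 and A549, a difference that was not tested. The A549 change minus the HCT116 change was 0.94 for TM7SF2, 0.84 for ELOVL6, 0.32 for MSMO1 and -0.49 for SCD. SCD alone of these was above 0 in HCT116 and below 0 in A549.

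Negative control spots, which match no gene, number 308 on each array. On HCT116 miR-891b 11 of these were well above background and on A549 miR-891b 2, against 0 on both NC1 arrays.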

How the results depend on the processing

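The labels carry no replicate numbers, and the additive limma model pairs NC1 and miR-891b by line. In HCT116 no gene of the 29 changed sign under the 7 other ways of processing, except that FADS1 and FADS2 have no value outside stray areas, and the median was -0.31 with quantile normalization and -0.33 with normexp. In A549 the sign changed for 6 genes with quantile normalization, 5 with normexp, 2 with median scaling and 1 outside stray areas. There the A549 median was -0.036 with quantile normalization, -0.025 with normexp, and -0.18 both with the mean over probes and outside stray areas. Genes at least 2-fold lower in A549 numbered 1 with quantile normalization and 1 with normexp. At 1.5-fold, 7 were lower in HCT116 and 8 in A549. Normexp left 3 genes past 1.5-fold downward in A549 and 0 in both lines. Between the NC1 arrays, 2 genes were at least 2-fold lower in A549 with normexp. At 1.5-fold, 5 genes were higher in A549 with normexp, in place of the 4 given in the Results. Outside stray areas 0 were at least 2-fold higher, because FADS1 and FADS2, the 2 such genes, have no value there. The additive limma model called 6 genes with no filter on dim probes, 0 of them among the 29. The cause of the other shifts was not tested. All 29 genes were well above background, and 1 array per group leaves no replicate check.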
